A study of Mus musculus with 23 samples.

Results

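Transcript levels of 9 genes for sensors of RNA and DNA, their adaptors and their partners were followed through 8 groups of cultured mouse CD4 T cells. The genes were the rows of the count table named Ddx58, Ifih1, Dhx58, Zbp1, Eif2ak2, Mavs, Tmem173, Trim25 and Adar, that is 9 of 53379 gene IDs, and each symbol matched 1 row. Ddx58 is now called Rigi (the protein RIG-I) and Tmem173 is now called Sting1 (the protein STING). Of all IDs, 30367 had a count in at least 1 library and 16882 passed the filter on low counts, all 9 sensor genes among them.

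The cells came from the spleen of mice of C57BL/6 strain background and were sorted as CD45+CD3+CD4+CD8- T cells. Cultures ran for 72 h. The stimulated libraries' labels name IL-2, a T cell growth factor given at 30 IU/ml, and antibodies against CD3 and CD28, which engage the T cell receptor complex and its costimulatory receptor. For unstimulated cells the growth protocol names IL-2 and no antibodies, while the libraries' own treatment labels name no IL-2, so a difference in IL-2 between the states cannot be told apart from stimulation if the second reading is right. Each of these was cultured with 5 mM niacin or without it, and each came from mice labelled Gpr109a-/- (here KO-labelled) or wild type (here WT-labelled). Gpr109a, now named Hcar2, encodes a receptor that niacin activates. Groups held 3 libraries, except that 2 (numbers 2 and 3) were at hand for unstimulated KO-labelled cells given niacin. Whether a group's libraries stem from separate animals is not stated in the labels, and p-values therefore measure the spread between libraries, which may be technical.

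Library totals spanned 13205565 to 30090018 counts (median 24007159), and the second lowest was 20604050. Hcar2 itself went against the labels: 10 of 11 KO-labelled libraries held counts of it (169 in all), against 1 of 12 WT-labelled libraries (1 count). Every genotype direction given here is that of the label. Depth or the mitochondrial share set 4 libraries apart. One was library 3 of the unstimulated KO-labelled cells, with the lowest total and the lowest TMM scaling factor (0.885). Mitochondrial genes took 0.407% of its counts, against 0.795% and 0.643% in libraries 1 and 2 of its group. Its summed CD4 T cell, B cell and CD8 markers were the lowest of all libraries (3653, 418 and 7.88 CPM). Over all genes its counts differed from both other libraries of its group more than those of any other pair within a group. In the count table its column alone lacks the ending jax, a difference whose meaning the labels do not give. Mitochondrial genes took 0.187% and 0.217% of the counts in libraries 1 and 2 of the stimulated WT-labelled cells with niacin, and 0.605% in library 3 of their group. They took 0.346% in library 1 of the unstimulated WT-labelled cells, where the other two libraries had 0.937% and 0.802%.

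RIG-I (Ddx58) and MDA5 (Ifih1) are helicases that bind double-stranded RNA in the cytosol and pass the signal to MAVS, an adaptor on mitochondria. LGP2 (Dhx58) is the third helicase of that family, which lacks the signalling domain of the other two and tunes their response. STING (Tmem173) is the adaptor below the DNA sensor cGAS, ZBP1 binds nucleic acid in the Z form and links it to cell death, PKR (Eif2ak2) halts translation when it binds double-stranded RNA, TRIM25 attaches ubiquitin in the RIG-I pathway, and ADAR1 (Adar) edits adenosines so that self RNA is not sensed. Many of these genes are themselves induced by interferon, through factors that bind the interferon-stimulated response element (ISRE) in their promoters.

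The promoters are shown because some of these genes hold the core letters of such an element at their start site. RefSeq windows (GRCm38.p6, from 250 bases before to 50 bases after the start) were at hand for 6 of the 9 genes, in 8 windows, 3 of them for Adar. The table used holds none for Dhx58, Zbp1 and Tmem173. Windows were searched on both strands for the ISRE core, GAAA repeated after a gap of 2 bases, and capitals mark a match. Of the 6 genes, 3 held 1 match each, and Mavs is printed for comparison as a gene whose window held none. The windows lie at chr4:40239776-40240075 (minus strand) for Ddx58, chr2:62646206-62646505 (minus strand) for Ifih1, chr17:78882523-78882822 (minus strand) for Eif2ak2 and chr2:131233813-131234112 (plus strand) for Mavs, and each reads 5′ to 3′ in the direction of its gene.
Ddx58: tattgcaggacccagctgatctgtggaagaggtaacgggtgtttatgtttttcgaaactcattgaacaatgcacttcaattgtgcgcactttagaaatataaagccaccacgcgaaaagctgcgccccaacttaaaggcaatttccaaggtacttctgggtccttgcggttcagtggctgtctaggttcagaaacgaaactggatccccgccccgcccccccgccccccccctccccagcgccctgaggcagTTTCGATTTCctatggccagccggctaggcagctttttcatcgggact
Ifih1: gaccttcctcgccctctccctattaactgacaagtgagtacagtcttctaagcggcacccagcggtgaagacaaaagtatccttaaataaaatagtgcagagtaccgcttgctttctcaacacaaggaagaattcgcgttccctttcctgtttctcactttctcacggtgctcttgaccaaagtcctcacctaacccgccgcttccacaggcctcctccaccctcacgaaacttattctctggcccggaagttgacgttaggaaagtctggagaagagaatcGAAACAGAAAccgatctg
Eif2ak2: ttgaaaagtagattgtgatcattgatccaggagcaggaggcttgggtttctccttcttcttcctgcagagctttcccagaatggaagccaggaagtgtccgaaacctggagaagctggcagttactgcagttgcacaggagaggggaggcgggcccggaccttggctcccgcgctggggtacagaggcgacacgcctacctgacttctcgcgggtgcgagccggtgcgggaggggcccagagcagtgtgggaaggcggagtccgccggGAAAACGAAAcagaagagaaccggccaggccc
Mavs: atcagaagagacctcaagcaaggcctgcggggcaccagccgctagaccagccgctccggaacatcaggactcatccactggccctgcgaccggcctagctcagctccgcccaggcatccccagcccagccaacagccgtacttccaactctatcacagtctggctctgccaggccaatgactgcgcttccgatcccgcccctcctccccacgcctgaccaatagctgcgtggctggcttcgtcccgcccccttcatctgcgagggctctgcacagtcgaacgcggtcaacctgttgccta
Counting the start site as 0, the match spanned positions 2 to 11 in Ddx58, where it read on the reverse strand, 32 to 41 in Ifih1 and 18 to 27 in Eif2ak2. All 3 lay within the first bases of the transcribed part. Among all 32851 promoter windows of the same length, 3.44% held the core. The core of the interferon-gamma element (GAS, TTCNNNGAA, in 8.30% of all windows) was found in Eif2ak2 and in 1 of 3 Adar windows, and an NF-kB core (GGGA, a gap of 4 bases and CC, in 20.7% of all windows) in Eif2ak2 and in another Adar window. A match is a description of these letters and was not tested as a binding site, and a window with no match may hold the element in another spelling.

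Every gene was read in every library. Levels are CPM, counts relative to the library's total, scaled with TMM factors, edgeR's correction for library composition, and levels of different genes are compared per gene length (RPKM, the CPM divided by the length in kilobases). Averaged over the 23 libraries, Tmem173 had the highest level per length at 107 RPKM, and Zbp1 followed at 62.8 RPKM. Dhx58 (20.5), Adar (20.0), Ddx58 (17.7), Trim25 (17.0) and Mavs (15.4 RPKM) lay close together, and Eif2ak2 (4.44 RPKM) and Ifih1 (2.48 RPKM) were lowest. So the transcripts of STING and ZBP1 were the most abundant of the 9 per length, and that of MDA5 the least.

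**Figure D1:**
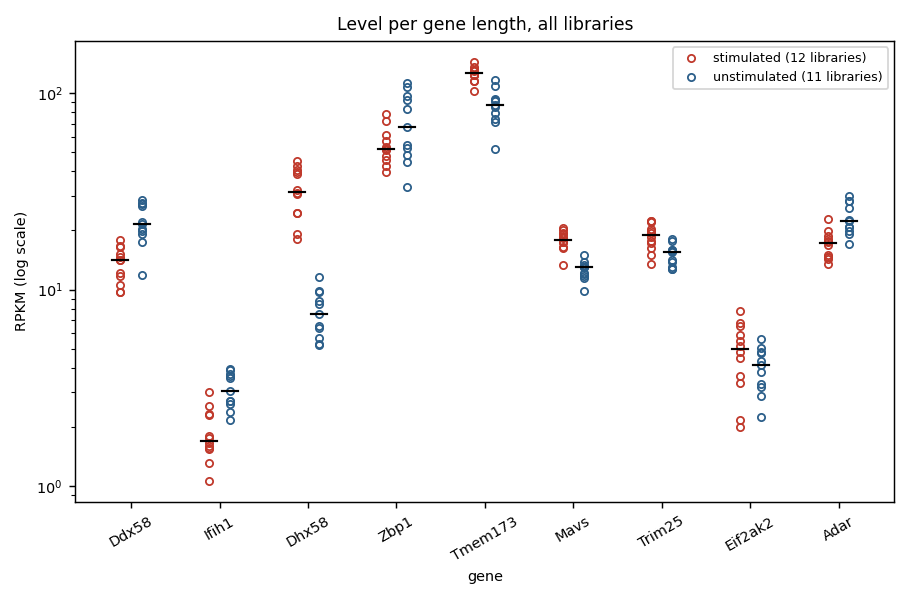
RPKM of each sensor gene (log axis) in 12 stimulated libraries (red, left of each pair) and 11 unstimulated libraries (blue, right). Points are libraries and bars are medians. Dhx58 is the gene whose stimulated and unstimulated libraries lie farthest apart, and Tmem173 and Zbp1 lie highest.

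The genes differed in how far they ranged. Dhx58 spanned 17.1 to 147 CPM over the 23 libraries, an 8.61-fold range. Eif2ak2 spanned 10.2 to 39.8 CPM (3.89-fold), Ifih1 8.72 to 32.2 CPM (3.69-fold), Zbp1 117 to 399 CPM (3.40-fold) and Ddx58 68.9 to 202 CPM (2.93-fold). Tmem173 ranged 2.77-fold, Adar 2.20-fold and Mavs 2.08-fold. Trim25 ranged least, 73.1 to 128 CPM (1.75-fold).

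**Figure D2:**
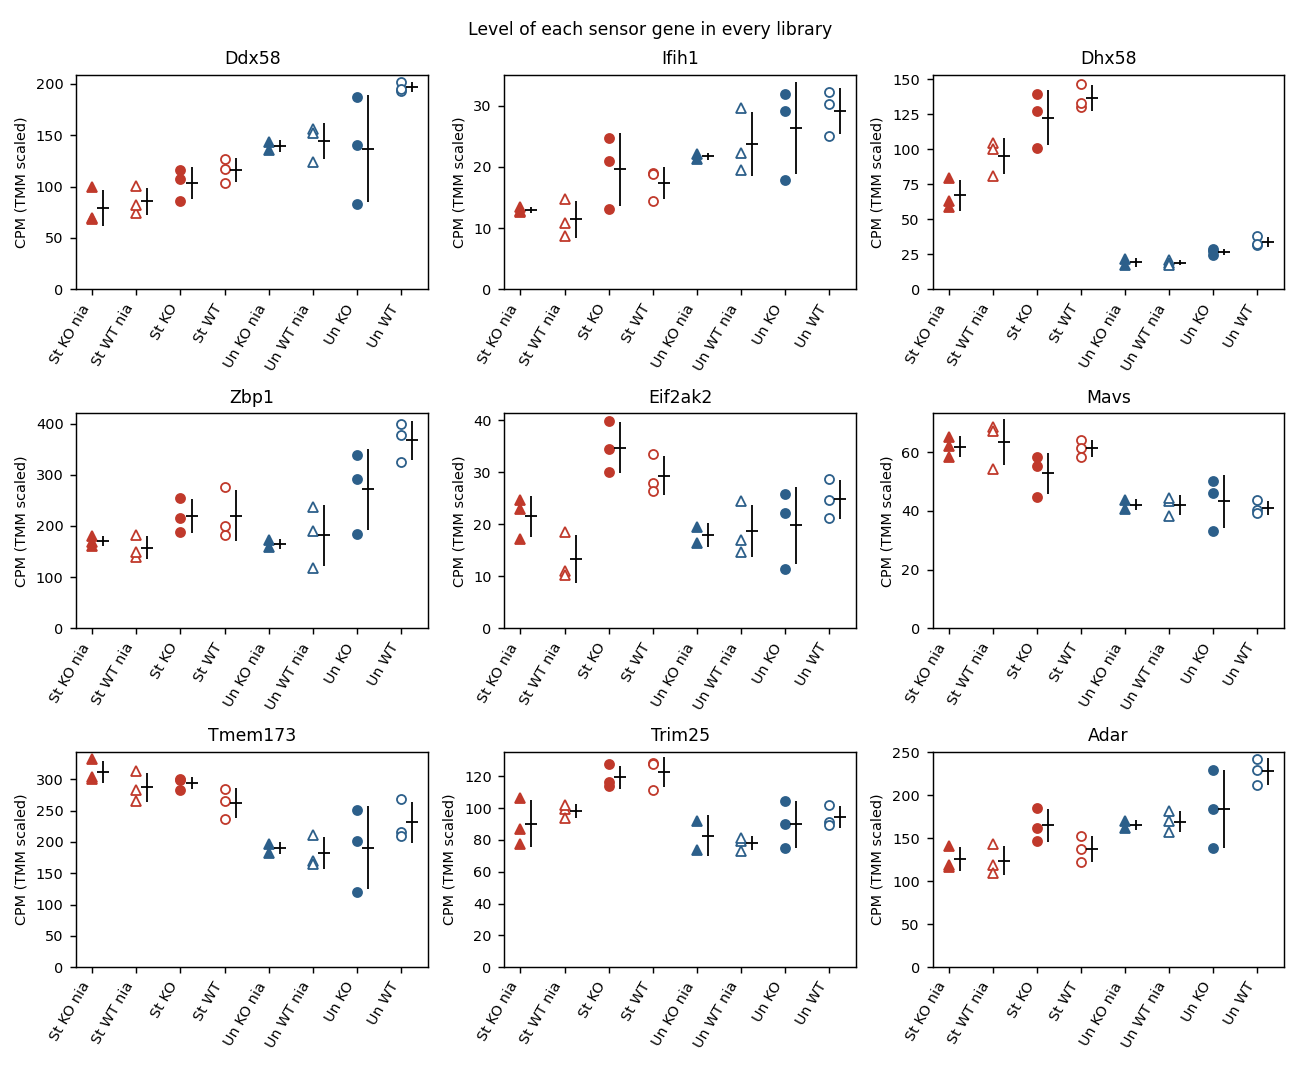
CPM (TMM scaled) of each of the 9 genes in every library, by group. St is stimulated (red), Un unstimulated (blue), KO and WT the genotype label (filled and open) and nia niacin (triangles). Black bars give the mean ± SD. Dhx58 separates the stimulated from the unstimulated libraries, while Ddx58, Ifih1 and Adar are highest in the unstimulated groups.

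The first comparison asks what stimulation of CD3 and CD28 did to the sensors relative to unstimulated cells, which by the growth protocol had IL-2 by itself. The 3 helicases of the RIG-I family moved in opposite directions: Dhx58 rose about 4.24-fold on average over the 4 backgrounds, while Ddx58 and Ifih1 fell. The adaptors Mavs and Tmem173 and the ligase Trim25 rose by smaller amounts, and Adar and Zbp1 fell. By edgeR's quasi-likelihood test 8 of the 9 genes passed in this average (4 higher, 4 lower), where 76.1% of all genes tested passed in either direction, 35.3% higher and 40.8% lower. Stimulation thus moved most of the transcriptome, and the count of sensor genes is to be read against that background. Of 10 T cell activation genes, 8 rose in the same average. In bulk RNA, fewer cells of a type and less RNA per cell cannot be told apart.

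Dhx58, the gene of LGP2, had the largest change of the 9. Stimulated WT-labelled cells had 130.2, 133 and 147 CPM, against 38.0, 31.7 and 32.4 CPM in unstimulated WT-labelled cells. Stimulated KO-labelled cells had 139, 127 and 101 CPM, against 27.5, 28.5 and 24.7 CPM in unstimulated KO-labelled cells. In both labels the groups stood wholly apart. With niacin in the medium the levels were 105, 100.4 and 80.7 CPM in stimulated WT-labelled cells, against 20.9, 18.6 and 17.3 CPM in unstimulated WT-labelled cells with niacin. The KO-labelled cells with niacin had 79.9, 59.2 and 62.9 CPM when stimulated, against 17.1 and 21.4 CPM unstimulated. Every stimulated library lay above every unstimulated one, the lowest of the 12 at 59.2 CPM and the highest of the 11 at 38.0 CPM. The log2 fold change was 2.01 ± 0.16 (SE) in WT-labelled cells, 2.19 ± 0.16 in KO-labelled cells, 2.33 ± 0.16 in WT-labelled cells with niacin and 1.81 ± 0.19 in KO-labelled cells with niacin (edgeR adjusted p = 5.04e-09, 1.59e-09, 5.92e-10 and 2.28e-07). The average was 2.08 ± 0.09 (edgeR adjusted p = 1.21e-14), and it passed without any single library.

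Ddx58, the gene of RIG-I, ran the other way. Stimulated WT-labelled cells had 103, 117 and 127 CPM, against 192, 202 and 195 CPM in unstimulated WT-labelled cells, with no overlap. With niacin the levels were 74.3, 82.5 and 100.1 CPM in stimulated WT-labelled cells, against 156, 152 and 124 CPM in unstimulated ones. The KO-labelled cells with niacin had 99.8, 68.9 and 68.9 CPM when stimulated, against 144 and 135 CPM unstimulated. In these 3 backgrounds Ddx58 fell by 0.76 ± 0.21, 0.75 ± 0.21 and 0.82 ± 0.24 on the log2 scale (SE, edgeR adjusted p = 0.00659, 0.00625 and 0.00725). The third of these calls was lost without library 2 of the unstimulated KO-labelled cells with niacin (adjusted p = 0.0558). The call with niacin in WT-labelled cells was lost without libraries 1 and 2 of the stimulated group together (adjusted p = 0.218).

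Without niacin, stimulated KO-labelled cells had 116, 108 and 86.1 CPM of Ddx58, against 140.3, 187 and 83.5 CPM in unstimulated KO-labelled cells. The groups overlapped through library 3 of the unstimulated cells, the one with the lowest total, and the log2 fold change of -0.41 ± 0.21 did not pass (edgeR adjusted p = 0.113). It passed with DESeq2 (adjusted p = 0.0486), with no filter (0.048) and with limma voom (0.00233). Without that library it was -0.66 and passed by edgeR (adjusted p = 0.00322). The part of that library's depth or composition in the result was not tested. On average Ddx58 fell by 0.68 ± 0.11 on the log2 scale (edgeR adjusted p = 1.08e-05), a call kept without any single library.

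Ifih1, the gene of MDA5, followed Ddx58 at a lower level. Stimulated WT-labelled cells had 14.4, 18.9 and 18.9 CPM, against 25.0, 32.2 and 30.2 CPM in unstimulated WT-labelled cells. With niacin they had 10.8, 8.72 and 14.8 CPM, against 29.5, 22.3 and 19.4 CPM in unstimulated WT-labelled cells with niacin. Both pairs stood apart. The log2 fold change was -0.74 ± 0.25 without niacin and -1.05 ± 0.25 with it (edgeR adjusted p = 0.0191 and 0.00154). The first call did not hold without library 1 of the stimulated group or library 2 or 3 of the unstimulated group (adjusted p = 0.0819, 0.0651 and 0.0523), and the second without libraries 1 and 2 of the stimulated group together (adjusted p = 0.147).

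The KO-labelled cells with niacin had 12.6, 12.8 and 13.5 CPM of Ifih1 when stimulated, against 21.3 and 22.2 CPM unstimulated. The fall of 0.75 ± 0.27 passed (edgeR adjusted p = 0.0289) but was lost without any 1 of these 5 libraries (adjusted p = 0.0503 to 0.115). Without niacin, stimulated KO-labelled cells had 24.7, 21.0 and 13.1 CPM, against 29.2, 32.0 and 17.8 CPM in unstimulated ones, and -0.43 ± 0.25 did not pass (edgeR adjusted p = 0.148, or 0.0291 without library 3 of the unstimulated group). That difference passed with limma voom (adjusted p = 0.00556) and without the 4 libraries that stood apart (0.013). On average Ifih1 fell by 0.74 ± 0.13 (edgeR adjusted p = 2.40e-05), also without any single library.

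The proportion of the 3 helicase transcripts therefore differed between the states. Per gene length, Dhx58 was 1.72 to 3.04 times Ddx58 in the 12 stimulated libraries, against 0.256 to 0.636 times in the 11 unstimulated libraries. Dhx58 was 11.5 to 28.7 times Ifih1 in the stimulated libraries, against 1.77 to 3.79 times in the unstimulated ones. The ranges did not overlap for either ratio. These ratios restate the 3 genes' levels above and are given as a description.

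The adaptors rose. Mavs, the mitochondrial adaptor of RIG-I and MDA5, had 58.4 to 64.2 CPM in stimulated WT-labelled cells, against 39.2 to 43.7 CPM in unstimulated ones. With niacin it had 54.3 to 68.7 CPM in stimulated WT-labelled cells, against 38.3 to 44.5 CPM in unstimulated ones, and 58.2 to 65.3 CPM in stimulated KO-labelled cells, against 40.7 and 43.5 CPM in unstimulated ones. No pair overlapped, and the log2 fold change was 0.58 ± 0.15, 0.59 ± 0.15 and 0.55 ± 0.17 (edgeR adjusted p = 0.00396, 0.00275 and 0.0112). The third was lost without either of its 2 unstimulated libraries (adjusted p = 0.0532 and 0.0915) and with no filter on low counts (0.117). In KO-labelled cells without niacin the libraries had 44.8 to 58.2 CPM when stimulated, against 33.0 to 50.3 CPM unstimulated, and 0.29 ± 0.15 did not pass (adjusted p = 0.117, or 0.0457 without library 2 of the unstimulated group). The average was 0.50 ± 0.08 (edgeR adjusted p = 7.32e-06).

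Tmem173, the gene of STING, had 283, 298 and 301 CPM in stimulated KO-labelled cells, against 251, 201 and 120.3 CPM in unstimulated KO-labelled cells. With niacin the KO-labelled cells had 303, 301 and 333 CPM when stimulated, against 183 and 197 CPM unstimulated, and the WT-labelled cells 266, 313 and 283 CPM, against 211, 169.8 and 164 CPM. These groups stood apart, with log2 fold changes of 0.62 ± 0.18, 0.72 ± 0.21 and 0.66 ± 0.18 (edgeR adjusted p = 0.00736, 0.00732 and 0.00500). The first was lost when only the 2 groups compared were fitted (adjusted p = 0.126), the second without library 2 of the unstimulated group (0.0727) and the third without libraries 1 and 2 of the stimulated group together (0.0776). In WT-labelled cells without niacin the groups overlapped, at 237, 265 and 284 CPM stimulated, against 268, 216 and 209 CPM unstimulated, and 0.18 ± 0.18 did not pass (edgeR adjusted p = 0.431). That comparison passed at 0.30 (adjusted p = 0.0373) without the 4 libraries that stood apart, of which library 1 of the unstimulated WT-labelled cells is its highest unstimulated value. With limma voom it passed at 0.25 (adjusted p = 0.0469). The average was 0.55 ± 0.09 (edgeR adjusted p = 2.71e-05).

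Trim25, the ubiquitin ligase gene, rose least of the 4. It had 112 to 128 CPM in stimulated WT-labelled cells, against 89.3 to 102 CPM in unstimulated ones, and 114 to 128 CPM in stimulated KO-labelled cells, against 75.1 to 105 CPM in unstimulated ones. The log2 fold change was 0.38 ± 0.14 and 0.41 ± 0.14 (edgeR adjusted p = 0.0331 and 0.0193). Both calls were lost with RLE factors (adjusted p = 0.0670 and 0.0687), with no filter (0.148 and 0.137) or without single libraries (up to 0.105 and 0.102). With niacin it was 0.33 ± 0.14 in WT-labelled cells and 0.13 ± 0.16 in KO-labelled cells, and neither passed (edgeR adjusted p = 0.0521 and 0.524). The WT-labelled groups stood apart, at 93.5 to 102 CPM stimulated, against 73.1 to 81.4 CPM unstimulated. That value passed with limma voom (adjusted p = 0.00971) and in a fit of only the compared groups (0.0457), but in 0 of 6 fits without a single library. The average of 0.31 ± 0.07 passed without any single library (edgeR adjusted p = 0.000628).

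Adar, the gene of the RNA-editing enzyme ADAR1, had 122, 138 and 152 CPM in stimulated WT-labelled cells, against 229, 242 and 212 CPM in unstimulated WT-labelled cells. It fell by 0.73 ± 0.16 (edgeR adjusted p = 0.000919). With niacin the WT-labelled cells had 119, 143 and 110.0 CPM, against 182, 170.0 and 157 CPM, a fall of 0.45 ± 0.16 (edgeR adjusted p = 0.0219). That second call did not hold without library 1 or 3 of the stimulated group or library 1 of the unstimulated group (adjusted p = 0.0672, 0.0836 and 0.0666). The KO-labelled cells with niacin had 116 to 141 CPM stimulated, against 162 and 169.8 CPM unstimulated, and -0.40 ± 0.18 did not pass (edgeR adjusted p = 0.0636). That value lay near the threshold and passed in 5 of 7 other settings (adjusted p = 0.00665 to 0.0673 over the 7) and without library 1 of the stimulated group (0.0445). Without niacin the KO-labelled cells had 147 to 185 CPM stimulated, against 138 to 230 CPM unstimulated, and -0.16 ± 0.16 did not pass (edgeR adjusted p = 0.407). It passed with limma voom at -0.32 (adjusted p = 0.0339). The value was -0.37 and passed without the 4 libraries that stood apart (adjusted p = 0.0242). It was 0.03 and did not pass without library 2 of the unstimulated group. The average was a fall of 0.44 ± 0.08 (edgeR adjusted p = 6.72e-05).

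Zbp1, the sensor of Z-form nucleic acid, had 182, 201 and 276 CPM in stimulated WT-labelled cells, against 399, 326 and 379 CPM in unstimulated WT-labelled cells, with no overlap. It fell there by 0.74 ± 0.23 on the log2 scale (edgeR adjusted p = 0.0117), a call lost without library 1 or 2 of the stimulated group (adjusted p = 0.0588 and 0.0505). In KO-labelled cells it had 216, 255 and 188 CPM stimulated, against 292, 339 and 185 CPM unstimulated, and -0.31 ± 0.23 did not pass (edgeR adjusted p = 0.255, or 0.0448 without library 3 of the unstimulated group). That difference passed with limma voom (adjusted p = 0.025) and without the 4 libraries that stood apart (0.0341). With niacin the log2 fold change was -0.21 ± 0.23 in WT-labelled and 0.05 ± 0.25 in KO-labelled cells (edgeR adjusted p = 0.459 and 0.895). The fall in the average, 0.30 ± 0.12 (edgeR adjusted p = 0.0235), was lost without library 3 of the unstimulated KO-labelled cells with niacin (0.0525) or library 1 of the unstimulated WT-labelled cells with niacin (0.0536).

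Eif2ak2, the gene of PKR, was the one gene that did not pass in the average, at 0.20 ± 0.14 (edgeR adjusted p = 0.188). In KO-labelled cells without niacin it had 34.4, 39.8 and 30.0 CPM stimulated, against 25.7, 22.2 and 11.5 CPM unstimulated, a rise of 0.80 ± 0.27 (edgeR adjusted p = 0.0174). That call did not hold without library 3 of the unstimulated group, which holds the 11.5 CPM (adjusted p = 0.0769), without library 2 of the stimulated group (0.0654) and in a fit of the 2 groups alone (0.092). In WT-labelled cells with niacin it had 11.1, 10.2 and 18.5 CPM stimulated, against 24.4, 14.7 and 17.0 CPM unstimulated, and -0.49 ± 0.27 did not pass (edgeR adjusted p = 0.132). Without library 3 of that stimulated group the value was -0.81 and passed (adjusted p = 0.0226). Over the 8 other settings, which included fits without libraries 1 and 2 of that group, it ran from -0.54 to -0.03. The other 2 backgrounds gave 0.24 ± 0.27 and 0.27 ± 0.30 (edgeR adjusted p = 0.482 and 0.479).

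**Figure D3:**
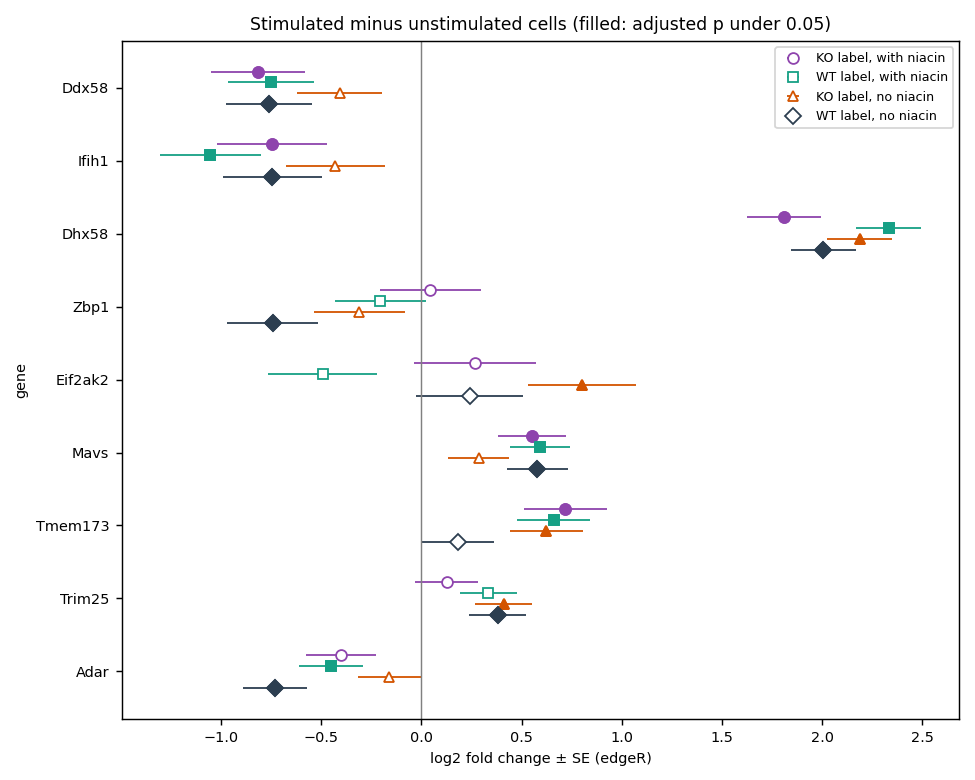
Log2 fold change ± SE of stimulated minus unstimulated cells for each gene in 4 backgrounds, by edgeR. Filled symbols passed at an adjusted p under 0.05. Dhx58 lies between 1.81 and 2.33 in all 4 backgrounds, Ddx58 and Ifih1 lie below 0 in all 4, and Mavs and Tmem173 lie above 0 in all 4.

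By background, 7 of 9 genes passed in WT-labelled cells, 3 higher and 4 lower, where 45.1% of all genes passed (23.4% higher, 21.7% lower). In KO-labelled cells 4 passed, all higher, where 52.7% of all genes passed (25.2% higher, 27.5% lower). In WT-labelled cells with niacin 6 passed, 3 higher and 3 lower, where 52.6% of all genes passed (26% higher, 26.6% lower). In KO-labelled cells with niacin 5 passed, 3 higher and 2 lower, where 49.8% of all genes passed (24.5% higher, 25.3% lower). Unequal counts do not show that a background differed. When that difference was tested, the stimulation effect of none of the 9 genes differed by genotype label, without or with niacin (lowest edgeR adjusted p = 0.426, with 2 of the 18 values at an unadjusted p under 0.05). DESeq2 and limma voom called 0 of these differences too. Without the 4 libraries that stood apart, 7 genes passed in KO-labelled cells and 4 in WT-labelled cells with niacin. The median log2 fold change in the average was 0.20 over the 9 genes and -0.11 over all genes tested.

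Markers of other cell types were read beside these results. Summed CD4 T cell markers held 3653 to 6122 CPM over the libraries. Of 12 myeloid and dendritic markers, 2 rose and 3 fell of the 7 tested, and their sum was 84.3 to 138 CPM in stimulated libraries, against 52.0 to 99.3 CPM in unstimulated ones. Cst3, which many cells express, made up most of it (48.4 to 135 CPM), and Csf1r, Itgax, Siglech and Clec9a were at 0 in 19, 20, 18 and 22 of the 23 libraries. Of 9 B cell markers, none rose and 4 fell of the 7 tested, with a sum of 569 to 863 CPM in stimulated libraries, against 418 to 1109 CPM in unstimulated ones, mostly Ighm (408 to 1103 CPM), while Pax5 was at 0 in 21 libraries. Of 6 NK cell markers, 1 rose and 5 fell, with a sum of 74.3 to 110.1 CPM in stimulated libraries, against 35.4 to 58.3 CPM in unstimulated ones. Eomes, which T cells can also express, made up 92.1% to 98.9% of the sum in stimulated libraries, against 7.13% to 61.3% in unstimulated ones. Klrd1, an NK cell receptor gene, had 0.0881 to 4.28 CPM in stimulated libraries, against 6.71 to 38.1 CPM in unstimulated ones, and Ncr1 was at 0 in 11 of all libraries. The 5 NK cell markers that fell with stimulation are those other than Eomes. Neither of the 2 CD8 markers passed, with sums of 16.2 to 22.2 CPM against 7.88 to 29.2 CPM. The part of these cells in the sensor results was not tested.

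The second comparison asks what niacin did to the sensors within each state. On average over the 4 backgrounds Dhx58 and Zbp1 were lower with niacin, and no sensor gene was higher. That is 2 of 9 genes passing by edgeR (0 higher, 2 lower), where 26 of 16882 genes passed, or 0.154% of all genes, 0.0178% higher and 0.136% lower. The median log2 fold change was -0.31 over the 9 genes, against -0.02 over all genes tested. With DESeq2 4 of the 9 passed, and with limma voom 7, where these tools called 109 and 355 of all genes.

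Dhx58 was lower with niacin in each background, and in each the libraries with niacin lay wholly below those without. Stimulated KO-labelled cells had 79.9, 59.2 and 62.9 CPM with niacin, against 139, 127 and 101 CPM without it. Stimulated WT-labelled cells had 105, 100.4 and 80.7 CPM with niacin, against 130.2, 133 and 147 CPM without it. So niacin left the stimulated cells at about 0.55 and 0.70 of the level without it. Unstimulated WT-labelled cells had 20.9, 18.6 and 17.3 CPM with niacin, against 38.0, 31.7 and 32.4 CPM without it. Unstimulated KO-labelled cells had 17.1 and 21.4 CPM with niacin, against 27.5, 28.5 and 24.7 CPM without it. The log2 differences were -0.87 ± 0.16, -0.52 ± 0.15, -0.85 ± 0.16 and -0.49 ± 0.18 in that order, and none passed by itself (edgeR adjusted p = 0.145, 0.405, 0.131 and 0.608). In the average Dhx58 fell by 0.68 ± 0.08 (edgeR adjusted p = 0.000766), and the call was kept in all 23 fits that left out 1 library (adjusted p up to 0.0134) and in the 7 other settings tried (up to 0.00292).

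Zbp1 had its largest difference in the unstimulated cells. Unstimulated WT-labelled cells had 237, 191 and 117 CPM with niacin, against 399, 326 and 379 CPM without it. Unstimulated KO-labelled cells had 158 and 172 CPM with niacin, against 292, 339 and 185 CPM without it. Both pairs stood apart. Stimulated KO-labelled cells had 169, 181 and 161 CPM with niacin, against 216, 255 and 188 CPM without it. Stimulated WT-labelled cells had 139.7, 183 and 149.7 CPM with niacin, against 182, 201 and 276 CPM without it, and these overlapped by 1 library. The log2 differences were -1.02 ± 0.23, -0.72 ± 0.26, -0.37 ± 0.23 and -0.48 ± 0.23 in that order, and none passed by itself (edgeR adjusted p = 0.337, 0.608, 1 and 0.493). The fall in the average, 0.65 ± 0.12 (edgeR adjusted p = 0.0157), was lost without library 2 or 3 of the unstimulated KO-labelled cells with niacin (0.0993 and 0.0717) and without libraries 1 and 2 of the stimulated WT-labelled cells with niacin together (0.0811).

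Eif2ak2 was lower with niacin in the stimulated libraries without overlap, but did not pass. Stimulated KO-labelled cells had 22.9, 24.7 and 17.1 CPM with niacin, against 34.4, 39.8 and 30.0 CPM without it. Stimulated WT-labelled cells had 11.1, 10.2 and 18.5 CPM with niacin, against 27.9, 26.5 and 33.5 CPM without it. The differences were -0.69 ± 0.27 and -1.14 ± 0.27 (edgeR adjusted p = 0.866 and 0.369), and the second was -1.46 and passed without library 3 of its niacin group (adjusted p = 0.0116). The 2 libraries below 12 CPM there are those with the low mitochondrial share, and the part of that share in the difference was not tested. Over the 8 other settings, which included fits without these 2 libraries, the second difference ran from -1.33 to -0.67. In the average Eif2ak2 was -0.60 ± 0.14 (edgeR adjusted p = 0.106). It passed with DESeq2 (adjusted p = 0.00686), limma voom (0.000162) and no filter (0.000997), and by edgeR with adjusted p of 0.00775 without library 3 of the unstimulated KO-labelled cells, 0.0315 without library 3 of the stimulated WT-labelled cells with niacin and 0.0474 without library 1 of the unstimulated WT-labelled cells with niacin.

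The other genes gave smaller averages that did not pass by edgeR. Ifih1 was at -0.44 ± 0.13, Ddx58 at -0.31 ± 0.11, Adar at -0.28 ± 0.08 and Trim25 at -0.28 ± 0.07 (edgeR adjusted p = 0.308, 0.548, 0.329 and 0.200). Ddx58 and Adar passed without library 3 of the unstimulated KO-labelled cells (adjusted p = 0.0425 and 0.0228). With limma voom Ifih1, Ddx58, Adar and Trim25 passed (adjusted p = 0.00286, 0.0129, 0.00965 and 0.0331), and Trim25 passed with DESeq2 too (0.0469). The adaptors were close to 0, with Tmem173 at -0.03 ± 0.09 (95% interval -0.23 to 0.16) and Mavs at 0.07 ± 0.08 (95% interval -0.09 to 0.23).

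Of the 36 values of 9 genes in 4 backgrounds, 30 were below 0 and 6 above, ranging from -1.14 to 0.23. The median over all genes tested was 0 to 0.012 in these backgrounds. The 36 values come from the same libraries and are not independent. None of the 36 passed by edgeR in a single background (lowest adjusted p = 0.131), where 16 had an unadjusted p under 0.05. The share of all genes under that unadjusted p is not given here. Of all genes tested edgeR called 0% in 3 of the backgrounds and 0.00592% in stimulated KO-labelled cells. DESeq2 called 2 of the 9 genes in unstimulated WT-labelled cells (Dhx58 and Zbp1), 1 in stimulated WT-labelled cells (Eif2ak2), 1 in stimulated KO-labelled cells (Dhx58) and 0 in unstimulated KO-labelled cells, and limma voom 4, 3, 1 and 0. In the same order DESeq2 called 14, 42, 11 and 7 of all genes, and limma voom 286, 1828, 8 and 4. Tests of whether the niacin effect differed by stimulation or by genotype label called none of the 9 genes (lowest edgeR adjusted p = 0.665 and 0.972), and no value of either kind had an unadjusted p under 0.05. DESeq2 called 0 of them and limma voom 1, for the effect by stimulation in WT-labelled cells.

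**Figure D4:**
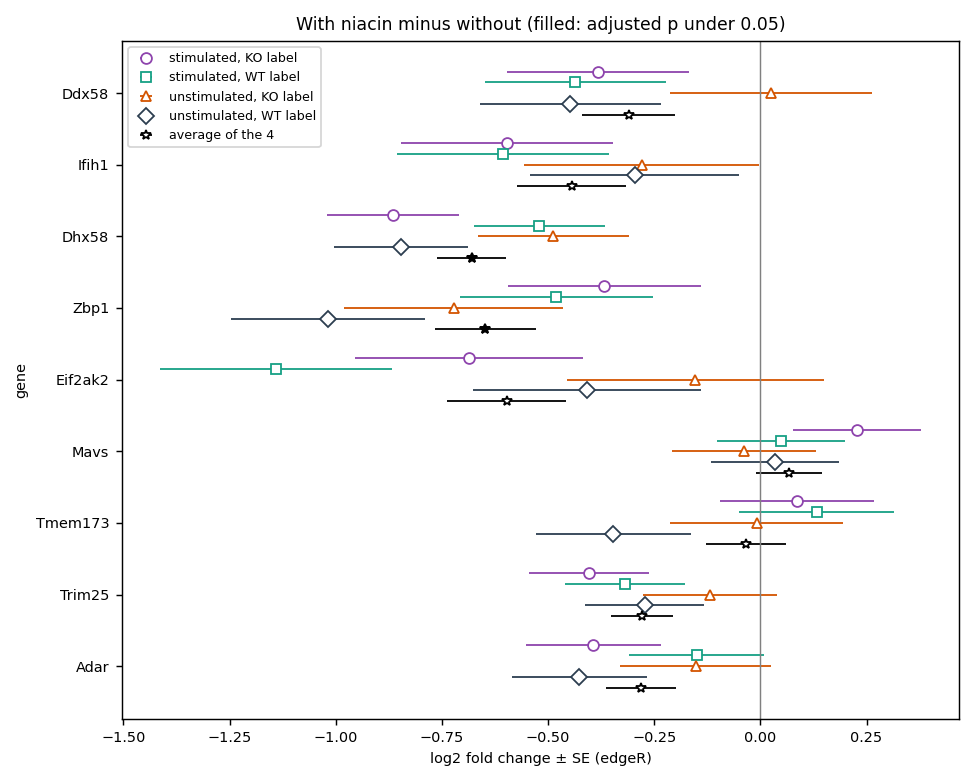
Log2 fold change ± SE of cells with niacin minus cells without, in 4 backgrounds and in their average (stars), by edgeR. Filled symbols passed at an adjusted p under 0.05, which Dhx58 (-0.68) and Zbp1 (-0.65) did in the average. Dhx58, Zbp1, Eif2ak2, Ifih1, Trim25 and Adar lie below 0 in all 4 backgrounds, and Mavs and Tmem173 lie around 0.

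The third comparison asks whether cells labelled Gpr109a-/- differed from cells labelled wild type. No sensor gene passed by edgeR in unstimulated, unstimulated with niacin, stimulated or stimulated with niacin cells, or in the average, where 0.0415%, 0.0355%, 0.113%, 1.44% and 0.326% of all genes passed. The 36 values of single conditions ran from -0.52 to 0.70, and 4 had an unadjusted p under 0.05, with 1 more among the 9 averages. For these too, the share of all genes under that p is not given. In stimulated cells with niacin Dhx58 had 79.9, 59.2 and 62.9 CPM in KO-labelled cells, against 105, 100.4 and 80.7 CPM in WT-labelled cells. These groups stood apart by less than 1 CPM, and -0.50 ± 0.16 did not pass (edgeR adjusted p = 0.0898). Eif2ak2 had 22.9, 24.7 and 17.1 CPM in KO-labelled cells, against 11.1, 10.2 and 18.5 CPM in WT-labelled cells, which overlapped, and 0.70 ± 0.27 did not pass (edgeR adjusted p = 0.166).

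Both differences passed without library 3 of that WT-labelled group, at -0.61 and 1.02 (edgeR adjusted p = 0.0333 and 0.0401). Without it the WT-labelled group is the pair of libraries with the low mitochondrial share, whose part in the difference was not tested. The 8 other settings included fits that left out that pair and kept library 3. Over these settings Dhx58 ran from -0.54 to -0.29 and Eif2ak2 from 0.195 to 0.99. With DESeq2 1 of the 9 genes (Dhx58) passed in stimulated cells with niacin, and with limma voom 2 did, as well as 1 (Eif2ak2) in the average. Of all genes DESeq2 called 1122 in stimulated cells with niacin, and limma voom 3403 there and 843 in the average. DESeq2 called 0 of the 9 in the average and in the other 3 conditions, and limma voom 0 in those 3. The averages ran from -0.24 ± 0.08 for Dhx58 (95% interval -0.41 to -0.08, edgeR adjusted p = 0.269) to 0.14 ± 0.14 for Eif2ak2 (95% interval -0.15 to 0.43, adjusted p = 0.782).

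In order of group means, Dhx58 was highest in stimulated WT-labelled cells (137 ± 9.02 CPM, SD, n = 3), then in stimulated KO-labelled cells (123 ± 19.6, n = 3), stimulated WT-labelled cells with niacin (95.3 ± 12.8, n = 3) and stimulated KO-labelled cells with niacin (67.3 ± 11.1, n = 3). The unstimulated groups followed, at 34.0 ± 3.43 in WT-labelled, 26.9 ± 2.01 in KO-labelled, 19.2 ± 3.03 in KO-labelled with niacin (n = 2) and 18.9 ± 1.83 CPM in WT-labelled with niacin. Ranges of neighbours overlapped between the first 3 and between the last 2, and were apart at the other steps. For Ddx58 the unstimulated WT-labelled cells stood alone at the top (196 ± 4.88 CPM, n = 3), and no other neighbours were apart. Neighbours were apart at 1 step for Ifih1, stimulated WT-labelled cells above stimulated KO-labelled cells with niacin. They were apart at 1 step for Mavs too, stimulated WT-labelled above stimulated KO-labelled cells, though other groups beyond these steps overlapped across them. For Trim25 the gap lay below the 2 stimulated groups without niacin, which stood above all others. Neighbouring groups overlapped throughout the order for Zbp1, Eif2ak2, Tmem173 and Adar.

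Genes around the 9 in these pathways were counted from lists, in the averages over 4 backgrounds. Of all genes tested, 35.3% rose and 40.8% fell with stimulation, and 0.0178% rose and 0.136% fell with niacin. The count of every list is to be read against these shares. Of 25 other nucleic acid sensors tested, 6 rose and 12 fell with stimulation (median log2 fold change -0.30, against -0.11 over all genes). Oas3, which makes the 2-5A messenger that activates RNase L, rose by 1.34 ± 0.14, while Ifi203 and Mndal, of the family of AIM2-like DNA sensors, fell by 2.01 ± 0.22 and 1.71 ± 0.16 (edgeR adjusted p = 1.76e-08, 3.96e-08 and 4.53e-09). With niacin 3 of the 25 fell and none rose, all 3 of the oligoadenylate synthetase family. These were Oas2 (-1.28 ± 0.21), Oas1a (-0.93 ± 0.18) and Oas3 (-0.77 ± 0.13), with edgeR adjusted p of 0.00749, 0.0222 and 0.0120. The count was 5 with DESeq2 and 7 with limma voom, and 1 of 26 without libraries 1 and 2 of the stimulated WT-labelled cells with niacin.

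Of 18 positive cofactors of RIG-I, MDA5, MAVS and STING, 10 rose and 5 fell with stimulation (median 0.30). Ywhae, the 14-3-3 protein that carries RIG-I to MAVS, rose by 1.52 ± 0.09, and Prkra, the gene of the PKR activator PACT, by 1.19 ± 0.13, while Trim56, a ligase of the STING pathway, fell by 1.42 ± 0.09 (edgeR adjusted p = 3.89e-12, 3.31e-08 and 2.70e-11). Of 22 negative regulators, 4 rose and 11 fell (median -0.30). Enpp1, which degrades the STING ligand cGAMP, rose by 1.32 ± 0.09, and Smurf1 and Itch, ligases that act on MAVS, fell by 1.43 ± 0.09 and 1.05 ± 0.12 (edgeR adjusted p = 7.70e-11, 1.34e-11 and 1.72e-07). For niacin edgeR called 0 genes of either list, where 1 of the 18 cofactors and 5 of the 22 negative regulators had an unadjusted p under 0.05. DESeq2 called 0 and 2 of them, and limma voom 1 and 5.

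Below the adaptors, 9 of 25 signalling genes rose and 12 fell with stimulation (median -0.13). Ripk3, the kinase through which ZBP1 triggers cell death, rose by 1.61 ± 0.09, and Ikbke, the gene of IKK-epsilon that activates IRF3, fell by 2.19 ± 0.07 (edgeR adjusted p = 2.69e-12 and 4.97e-16). With niacin 1 of the 25 passed, Irf7, the factor that amplifies interferon induction, at -0.94 ± 0.13 (edgeR adjusted p = 0.00277). Of 11 interferon receptor and response factor genes none rose and 8 fell with stimulation (median -0.36), among them Irf1 by 1.49 ± 0.06 and Jak1 by 1.46 ± 0.08 (edgeR adjusted p = 1.38e-14 and 5.65e-13). With niacin 2 of the 11 passed, both lower. Stat2, part of the factor that binds the ISRE, fell by 0.44 ± 0.07 (edgeR adjusted p = 0.00843).

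The other interferon-stimulated genes split with stimulation, 13 higher and 12 lower of 30 (median 0.09), where 35.3% of all genes were higher and 40.8% lower. Isg20, an RNA exonuclease gene, rose by 2.46 ± 0.12 and Isg15, the gene of a ubiquitin-like modifier, by 2.18 ± 0.19, while Ifit2, whose protein binds foreign RNA, fell by 1.84 ± 0.17 (edgeR adjusted p = 3.57e-13, 1.50e-09 and 6.48e-09). With niacin 11 of the 30 fell and none rose (median -0.57, against -0.02 over all genes). Ifi44 fell by 1.82 ± 0.31, Ifit3 by 1.64 ± 0.24 and Ifit3b by 1.64 ± 0.27 (edgeR adjusted p = 0.00843, 0.00277 and 0.00749). Ifit3 and Ifit3b are close copies that counting could split. The count was 17 with DESeq2, 27 with limma voom, 10 with the replicate block and 6 without libraries 1 and 2 of the stimulated WT-labelled cells with niacin. The lists together hold 17 of the 26 genes that passed for niacin by edgeR, beside Dhx58 and Zbp1. They were chosen with earlier results of these data known, so these counts are a description. Of 10 genes of eIF2alpha kinases and their partners 4 rose and 3 fell with stimulation, led by Atf4 (2.09 ± 0.07, edgeR adjusted p = 6.59e-16), and of 9 genes of RNA editing and modification 3 rose and 5 fell. For niacin edgeR and DESeq2 called 0 genes of these 2 lists, none of which had an unadjusted p under 0.05 in either, and limma voom called 0 of the 10 and 1 of the 9.

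**Figure D5:**
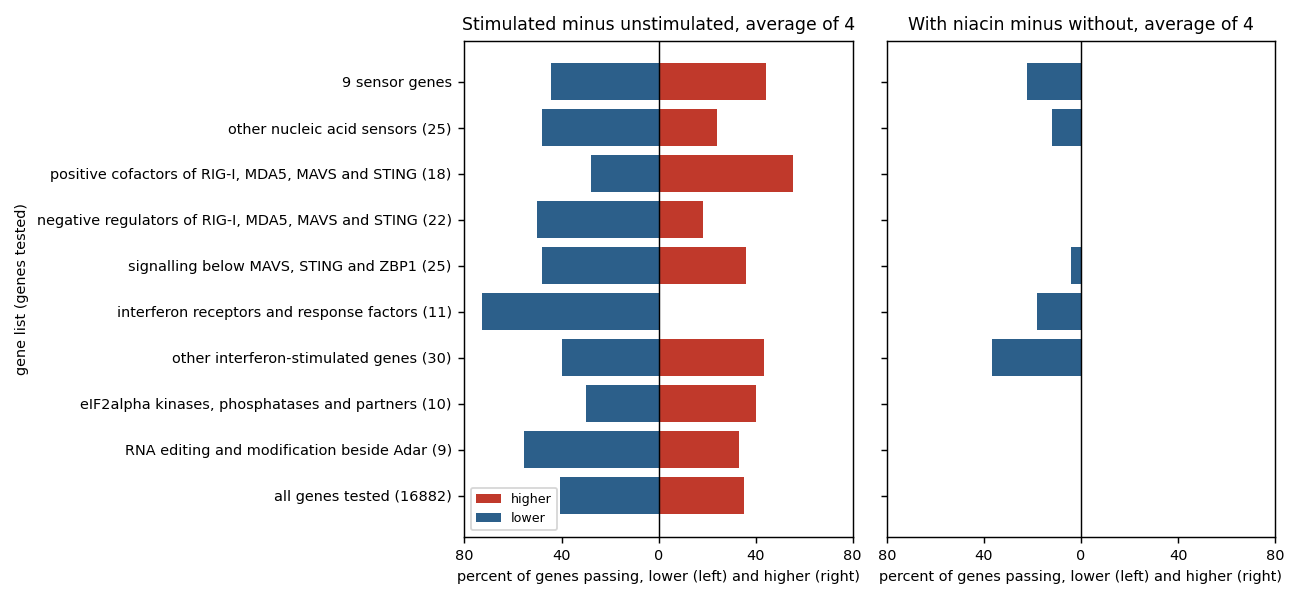
Percent of the genes of each list that passed higher (red, right) or lower (blue, left) by edgeR, for stimulation (left panel) and niacin (right panel), each averaged over 4 backgrounds. The number tested is in brackets and all genes tested stand at the bottom. For niacin the passing list genes lie on the lower side, 2 of 9 sensor genes and 11 of 30 other interferon-stimulated genes among them.

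Likeness in pattern was read as the Pearson correlation of log2 CPM over the 23 libraries, against 9734 genes of at least 5 CPM on average. It is a description, since the libraries fall into stimulated and unstimulated ones and share groups. The closest gene to Dhx58 was Isg20 (r = 0.976), to Zbp1 Ifit3 (0.938), to Ddx58 Ctss (0.949), to Ifih1 Gbp6 (0.926) and to Adar Gbp5 (0.893). For Tmem173 it was Rtcb (0.977), for Mavs Mgst3 (0.923), for Eif2ak2 Hsp90b1 (0.878) and for Trim25 Hspb6 (0.857). Ifit3 and the guanylate-binding genes Gbp5 and Gbp6 are known interferon-induced genes.

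Positions of the 9 genes are those of the deposited table (GRCm38, mm10). In the GENCODE vM21 annotation 8 of the 9 had the same coordinates, and Tmem173 did not. Ddx58 (ENSMUSG00000040296) spans 40203773 to 40239828 of chromosome 4, minus strand, Ifih1 (ENSMUSG00000026896) 62595798 to 62646255 of chromosome 2, minus strand, and Dhx58 (ENSMUSG00000017830) 100694884 to 100704271 of chromosome 11, minus strand. Zbp1 (ENSMUSG00000027514) spans 173206612 to 173218923 of chromosome 2, minus strand, and Eif2ak2 (ENSMUSG00000024079) 78852564 to 78882573 of chromosome 17, minus strand. Mavs (ENSMUSG00000037523) spans 131234063 to 131248025 of chromosome 2, plus strand, and Tmem173 (ENSMUSG00000024349) 35733678 to 35740554 of chromosome 18, minus strand. Trim25 (ENSMUSG00000000275) spans 88999376 to 89020293 of chromosome 11, plus strand, and Adar (ENSMUSG00000027951) 89715022 to 89753446 of chromosome 3, plus strand. By the exons of GENCODE vM21, 3 of the 9 share bases with a gene on the opposite strand: Adar 1365 bases with Chrnb2 (1257 counts over all libraries, against 89323 for Adar), Eif2ak2 174 bases with Gm26637 (2711 counts, against 12616) and 47 with n-R5s29 (9 counts), and Dhx58 141 bases with its antisense gene Dhx58os (6 counts, against 36904). The strand setting was not given in the sources used here. Reads of these shared bases therefore cannot be told apart.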

How the data were processed

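RNA of cultured mouse CD4 T cells was amplified (SMART-seq V4) for paired-end sequencing, per the labels' protocols. The tables hold the authors' deposited raw counts per gene. The submitters' processing notes name Trimmomatic 0.38, STAR 2.7.0e, featureCounts 1.6.3 and the builds GRCm38.p5 and mm10. Strand setting and annotation release were not given in the sources used here. RPKM use each gene's length in bases from the deposited table. Of 53379 IDs, 53274 had a symbol in GENCODE vM21 and 51335 the same coordinates there.

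The test was edgeR 4.0.16's quasi-likelihood F test on all 23 libraries, with 8 group means, TMM factors and filterByExpr at a minimum count of 10, which passed 16882 genes. Benjamini-Hochberg adjustment ran over these within a comparison, and 0.05 was the threshold. SEs come from the F statistic. CPM carry TMM factors. Comparisons were stimulated minus unstimulated, with niacin minus without and KO-labelled minus WT-labelled cells within the other labels, their equal-weight averages and the differences between them. The scripts were tested on simulated data for stimulation in WT-labelled cells. Of genes changed by 1 on the log2 scale 47.4% were recovered, and of those changed by 2, 69.8%. False calls were 6 of 119. A gene that did not pass may therefore still differ.

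Other settings were DESeq2 1.42.0, RLE factors, no filter, the replicate number as a block, limma 3.58.1 (voom with quality weights), only the compared groups, each library left out in turn, and libraries 1 and 2 of the stimulated WT-labelled cells with niacin left out together. Leaving out the 4 libraries that stood apart was chosen after seeing the data. The tables were read in R 4.3.3. The 9 genes and the lists were chosen with earlier results of these data known. The rule for named genes takes the 9 in every comparison and, from each list, at most 3 in each direction that passed with the largest fold changes and reached 5 CPM in a compared group (not all are printed). The genes most like each of the 9, by correlation of log2 CPM (prior count 2), complete them. Promoter windows are from RefSeq. Every count column had a sample. Some results for genes of the lists are not reported here.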

Additional observations from a re-analysis of the deposited data

How the results depend on the processing

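Among the 9 genes the stimulation average gave 8 calls, and 8 in each of the 7 other settings. The niacin average gave 2 calls with edgeR, 4 with DESeq2, 7 with voom and 1 without libraries 1 and 2 of the stimulated WT-labelled cells with niacin. Stimulation in KO-labelled cells gave 4 calls, 8 with voom, 1 in a fit of its own groups alone and 7 without the 4 libraries that stood apart. In WT-labelled cells with niacin stimulation gave 6 calls, and 3 without libraries 1 and 2 of its stimulated group. Single niacin comparisons, with 0 calls by edgeR, gave 1 to 4 by DESeq2, voom or without the filter. These were 1, 3 and 1 in stimulated WT-labelled cells, 1, 1 and 1 in stimulated KO-labelled cells (1 without the 4 libraries) and 2, 4 and 2 in unstimulated WT-labelled cells, and without the filter 1 in unstimulated KO-labelled cells. Voom gave 1 call for the niacin effect by stimulation in WT-labelled cells and 1 for the genotype average. By genotype in stimulated cells with niacin, 0 calls became 1 with DESeq2 and 2 with voom. Leaving out 1 library at a time gave 1 to 5 calls for the niacin average, 0 to 1 for niacin in stimulated WT-labelled cells, 2 to 6 for stimulation in KO-labelled cells, 1 to 5 in KO-labelled cells with niacin and 0 to 2 by genotype in stimulated cells with niacin. The cause of these changes was not tested.

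Signs changed among small values that passed in no setting that turned them. Zbp1 with stimulation in KO-labelled cells with niacin was -0.0328 with DESeq2, -0.0328 with RLE factors, -0.0235 without the filter, -0.0081 without the 4 libraries and -0.0143 to 0.11 with 1 library left out. Single omissions moved Zbp1 in WT-labelled cells with niacin from -0.44 to 0.0312, Trim25 in KO-labelled cells with niacin from -0.0262 to 0.29 and Adar in KO-labelled cells from -0.33 to 0.0305, all with stimulation. They moved Tmem173 in the niacin average from -0.10 to 0.0279. Of 66 other niacin and genotype values, which the text gives as ranges, 32 changed sign in some setting, none larger than 0.275 and none called with the other sign.

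The replicate numbers were also fitted as a block, which gave 8 calls for the stimulation average, 2 for the niacin average and 0 for the genotype average, the same counts as without it. Deviations of libraries with the same number correlated at -0.18 to 0.289 over 33 pairs of libraries, and no comparison had every value above 0.1, so the numbers were not taken to pair the libraries.

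Over all genes the counts depended on the tool where effects were small. With DESeq2, voom and no filter, the niacin average gave 109, 355 and 200 calls (26 by edgeR), the genotype average 257, 843 and 347 (55), stimulated cells with niacin by genotype 1122, 3403 and 1138 (243), stimulated cells by genotype 102, 169 and 208 (19), unstimulated cells by genotype 22, 7 and 673 (7) and with niacin 18, 31 and 23 (6). Niacin gave 42, 1828 and 344 in stimulated WT-labelled (0), 14, 286 and 62 in unstimulated WT-labelled (0), 11, 8 and 101 in stimulated KO-labelled (1) and 7, 4 and 418 in unstimulated KO-labelled cells (0). Stimulation gave 8903 in KO-labelled cells, and 5880 in a fit of its own groups alone, and in WT-labelled cells with niacin it gave 8888, and 4800 without libraries 1 and 2. Without those 2 libraries the niacin average had 14 calls, the genotype average 26 and stimulated cells with niacin by genotype 7. Without the 4 libraries these were 65, 175 and 48, and stimulated cells by genotype had 65. In a fit of its own groups alone, stimulated cells with niacin by genotype had 434. With 1 library left out at a time the niacin average had 11 to 98 calls and the genotype average 20 to 154. Depth was lowest, at 13205565 counts, in library 3 of the unstimulated KO-labelled cells. The part of that library's depth or composition in these results was not tested.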

Other observations

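By genotype label, 1 of 25 other nucleic acid sensor genes and 1 of 11 interferon receptor and response factor genes passed in the average over the 4 conditions, where 0.326% of all genes passed. Oasl2, a gene of the oligoadenylate synthetase-like family, was lower in KO-labelled than in WT-labelled cells, at -3.13 on the log2 scale (edgeR adjusted p = 0.0245). Ifngr2, which encodes a chain of the interferon-gamma receptor, was lower at -0.51 (edgeR adjusted p = 0.00599). The part of the receptor Hcar2, or of a gene's place on the chromosome, in these label differences was not tested. Neither gene passed for niacin in the average (edgeR adjusted p = 0.193 and 0.993). Ifngr2 fell with stimulation by 0.36 (edgeR adjusted p = 0.000801), and Oasl2 did not pass there (0.81, edgeR adjusted p = 0.235).

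Of the parts through which ZBP1 acts, Mlkl, the pore-forming effector of necroptosis, rose with stimulation like Ripk3, by 1.04 (edgeR adjusted p = 0.000152), while Ripk1 fell by 0.57 (edgeR adjusted p = 1.29e-06). The DNA sensor gene Cgas, whose product makes the ligand of STING, was at -0.19 with stimulation and at -0.28 with niacin and passed in neither (edgeR adjusted p = 0.228 and 0.811). Tbk1 and Irf3, the kinase and the factor that MAVS and STING share, fell with stimulation by 0.60 and 0.66 (edgeR adjusted p = 5.40e-07 and 1.47e-06). These genes were picked after their values had been seen.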
